A study of Drosophila melanogaster with 8 samples.

Results

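The genes described here are 32 ribosome biogenesis and nucleolar genes of Drosophila melanogaster, 32 of the 17411 genes counted in each library. They were taken by symbol from a list that had been proposed with their values in these libraries in view. Their differences between genotypes and their relation to ovarian RNA are therefore descriptions, and no test is read from them. All 32 were matched to the reference annotation, and all 32 passed the filter on low counts that left 9846 genes for testing.

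RNA came from cuticle carrying the fat body, the fly's organ of storage and metabolism, dissected from adult females aged 1 week. In the 9G8 RNAi group (genotype yolk-Gal4>9G8RNAi, n = 4 libraries) the driver yolk-Gal4, which works in the female's adult fat body, expressed a hairpin against 9G8, an SR-type splicing factor encoded by x16. The control group (yolk-Gal4/w1118, n = 4 libraries) carried the same driver without a hairpin. The hairpin insertion and the strain background go together with the genotype and cannot be told apart from it. Nothing in the labels says that libraries came from separate flies or cultures, and the p-values refer to the spread over these 8 libraries.

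Ribosomes are built in the nucleolus. RNA polymerase I (Pol I) transcribes the ribosomal RNA precursor, small nucleolar ribonucleoproteins (snoRNPs) methylate and pseudouridylate it, and a large set of assembly factors cuts and folds it into the small and large subunits, which are then exported. These factors are abundant in growing cells, among them the nurse cells of the ovary, whose transcripts supply the egg, and Myc is a known activator of many of their genes in flies. Ovarian RNA in the dissected tissue was followed by osk, nos and vas, the germline genes oskar, nanos and vasa.

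Libraries held 25396063 to 36181492 counts in 9G8 RNAi and 27946556 to 34750635 in control. The targeted gene was not detectably lower: x16 stood at 199, 34.7, 103 and 49.5 CPM (counts scaled to the size of the library) in 9G8 RNAi replicates 1 to 4, against 60.4, 65.6, 326 and 145 CPM in control replicates 1 to 4. The groups overlapped, and the log2 fold change was -0.63 (SE 0.63, adjusted p = 0.862, edgeR's quasi-likelihood test). In a fit that also held the level of osk, nos and vas, it was -1.05 (SE 0.49, adjusted p = 0.374, same test). In that fit x16 rose with the level of these germline genes, with a slope of 0.40 (SE 0.12, adjusted p = 0.0773, same test). The part of ovarian RNA in the level of x16 was not tested. The 10 fat body markers summed to 12790 to 22530 CPM in 9G8 RNAi and to 7196 to 11390 CPM in control, largely from a few abundant genes such as the yolk protein genes Yp2 and Yp3. The list did not move as 1: the means of Yp1, Yp2, Yp3, Cat, CG3523 and bmm were higher in 9G8 RNAi. Lsp2 averaged 9.94 CPM in 9G8 RNAi and 57.4 CPM in control, without overlap of the groups. Lsd-1 averaged 1177 CPM in 9G8 RNAi and 1813 CPM in control, with overlap, and Rfabg (apolpp) was level at 1493 and 1505 CPM. The fat body marker Fbp2 was near 0 in all libraries and at 0 in control 2. The 3 ovarian genes summed to 51.8 to 232 CPM in 9G8 RNAi and to 2.61 to 306 CPM in control. Gut markers summed to 12380 to 34910 CPM in 9G8 RNAi and to 228 to 18820 CPM in control, and hemocyte markers to 108 to 192 CPM in 9G8 RNAi and to 261 to 489 CPM in control. Of the gut genes alphaTry and betaTry were the most abundant on average, and this list did not move as 1 either. The means of Mal-A1 (3.41 against 20.5 CPM in control), Amy-p and Amy-d were lower in 9G8 RNAi, and those of the other gut genes were higher. The part of these other cell types in the levels below was not tested. In such bulk RNA, fewer cells of a type and less RNA per cell cannot be told apart.

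The 32 genes differed widely in level. Per kilobase of exon (CPM per kb), averaged over the 8 libraries, eIF6 was highest at 325 CPM per kb, followed by NHP2 at 165 and Fib at 163. RpI12 at 56.3 CPM per kb, Non1 at 47.9, Nop60B at 36.4, mod at 21.99, nop5 at 12.4 and Tif-IA at 11.6 came next. The other 23 lay below 10 CPM per kb, down to 0.718 for CG13185, the longest gene with 16988 exonic bases. The levels of NHP2 and Fib lay within each other's spread over libraries. The highest library exceeded the lowest by a median of 7.33-fold per gene, from 2.67-fold for NHP2 to 13.2-fold for ppan. The lowest count behind any value was 14 reads, for ppan.

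**Figure D1:**
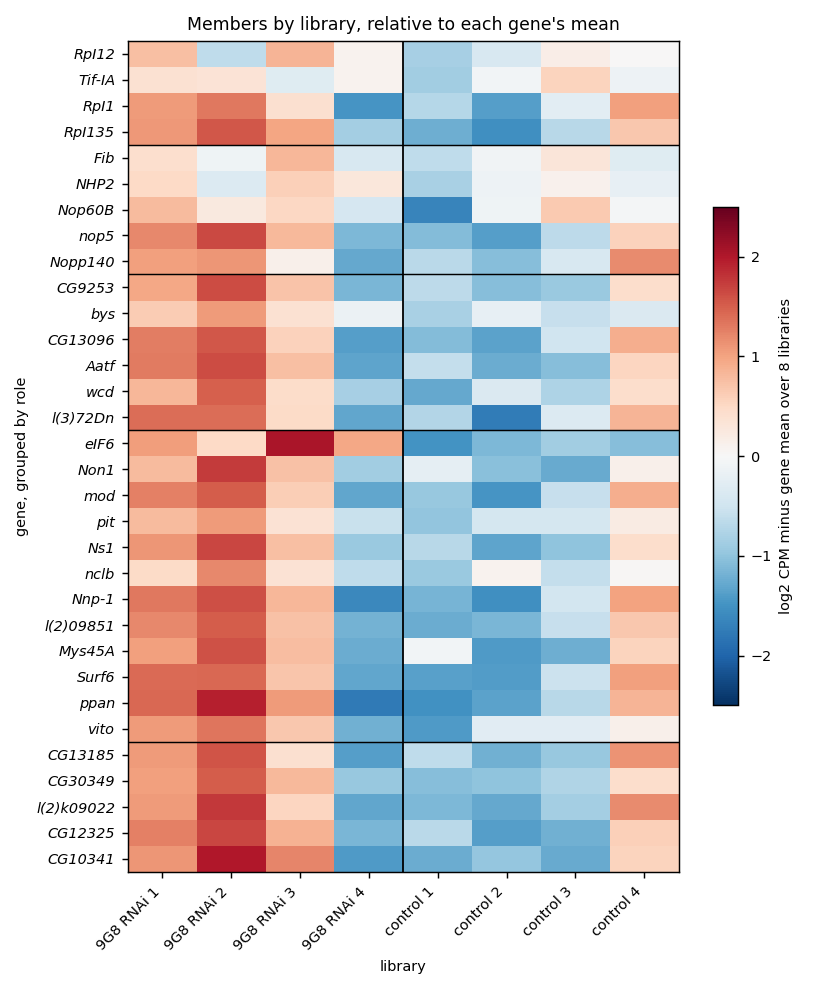
Level of each of the 32 genes (rows) in each library (columns, 9G8 RNAi left of control), as log2 CPM minus the gene's mean over 8 libraries. Rows are grouped from top to bottom as Pol I machinery, snoRNPs, small-subunit factors, large-subunit and other nucleolar proteins, and remaining genes. The sources used here give no role for the genes of the last group. Most rows are high in 9G8 RNAi 1, 2 and 3 and in control 4 and low in the other 4 libraries, whereas RpI12, Tif-IA, Fib, NHP2, Nop60B and eIF6 follow other orders.

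Among the Pol I genes, the large subunits of the polymerase varied together and the initiation factor did not follow them. RpI135 (Polr1B), the second largest subunit, stood at 9.38, 12.9, 8.75 and 2.44 CPM in 9G8 RNAi replicates 1 to 4, against 1.90, 1.52, 2.71 and 7.07 CPM in control replicates 1 to 4. One library of each genotype lay among the values of the other, 9G8 RNAi 4 low and control 4 high. RpI1 (Polr1A), the largest subunit, was high and low in much the same libraries, with 14.5, 17.3, 9.07 and 2.495 CPM in 9G8 RNAi, against 4.23, 2.65, 5.74 and 14.1 CPM in control. RpI12 (Polr1H), a small subunit, was at 46.8, 17.7, 50.0 and 29.3 CPM in 9G8 RNAi, against 15.5, 20.8, 30.9 and 27.8 CPM in control, so that 9G8 RNAi 2, the highest library for the large subunits, was the lowest of its group here. Tif-IA, which brings Pol I to the ribosomal DNA promoter, was at 31.1, 30.3, 19.3 and 25.3 CPM in 9G8 RNAi, against 13.1, 22.8, 35.1 and 21.7 CPM in control, with control 3 highest of all. The log2 fold changes of the 4 genes were 1.34 (SE 0.59) for RpI135, 0.70 (SE 0.61) for RpI1, 0.60 (SE 0.38) for RpI12 and 0.19 (SE 0.34) for Tif-IA.

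The snoRNP genes split in the same way. Fib, fibrillarin, the methyltransferase of box C/D snoRNPs, was at 272, 189, 365 and 156 CPM in 9G8 RNAi, against 131, 192, 251 and 167 CPM in control, and the groups overlapped over most of their range. NHP2, a protein of box H/ACA snoRNPs, was at 174, 96.8, 186 and 150 CPM in 9G8 RNAi, against 69.8, 113, 133 and 107 CPM in control. Nop60B, the dyskerin pseudouridine synthase of the same particles, was at 193, 133, 160 and 83.8 CPM in 9G8 RNAi, against 35.5, 103, 176 and 108 CPM in control. All 3 were lowest in control 1. In contrast nop5, a core protein of box C/D snoRNPs, was at 38.9, 52.8, 29.6 and 7.69 CPM in 9G8 RNAi, against 7.95, 6.49, 10.7 and 25.2 CPM in control, which is close to the order seen for RpI135. Nopp140, a nucleolar chaperone of snoRNPs, was at 29.6, 31.6, 15.96 and 6.03 CPM in 9G8 RNAi, against 9.13, 6.99, 11.1 and 33.3 CPM in control, and was the only one of the 32 with its highest value in control 4. Log2 fold changes were 1.36 (SE 0.57) for nop5, 0.52 (SE 0.34) for NHP2, 0.46 (SE 0.58) for Nopp140, 0.43 (SE 0.45) for Nop60B and 0.41 (SE 0.37) for Fib.

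The position of nop5 bears on its reading. It lies on 2L, 6916753 to 6918743 (BDGP6, minus strand), inside the span of x16 (6914301 to 6920210, same strand), the gene that the hairpin targets, and shares 0 exonic bases with it. Reads of unspliced RNA from such a pair cannot be told apart, so the level of nop5 is uncertain to that extent. The gene x16 was highest in control 3, at 326 CPM, where nop5 stood at 10.7 CPM. The part of unspliced x16 RNA in the level of nop5 was not tested.

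The 6 small-subunit genes had log2 fold changes between 1.01 and 1.35. The gene bys, bystin, needed for late maturation of the small subunit (X, 7901880 to 7903643), was at 13.4, 18.0, 11.2 and 7.74 CPM in 9G8 RNAi, against 4.94, 7.50, 5.82 and 6.74 CPM in control. Every 9G8 RNAi library lay above every control, as it did for 2.96% of all tested genes, the closest pair being 9G8 RNAi 4 and control 2. Its mean was 12.6 ± 4.29 CPM in 9G8 RNAi and 6.25 ± 1.11 CPM in control (SD, n = 4 each). The log2 fold change was 1.01 (SE 0.35, adjusted p = 0.187) and did not pass.

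The other 5 small-subunit genes had overlapping groups. Aatf (Che-1) was at 7.98, 10.1, 5.45 and 1.30 CPM in 9G8 RNAi, against 2.13, 1.38, 1.54 and 4.68 CPM in control, with 9G8 RNAi 4 below all controls. The DEAD-box helicase gene CG9253 (pths) was at 22.2, 34.9, 18.7 and 5.15 CPM in 9G8 RNAi, against 7.23, 5.44, 5.99 and 15.4 CPM in control. CG13096 (listed with the synonym UTP30) was at 14.8, 17.7, 9.01 and 2.34 CPM in 9G8 RNAi, against 2.85, 2.39, 4.28 and 11.3 CPM in control. Again 9G8 RNAi 4 was lowest of all for both. The gene wcd, wicked, of the U3 snoRNP, ranged from 1.92 to 9.68 CPM in 9G8 RNAi and from 1.42 to 4.65 CPM in control. For l(3)72Dn the range was 0.936 to 6.07 CPM in 9G8 RNAi and 0.689 to 4.18 CPM in control.

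The 12 large-subunit and other nucleolar genes included the only one of the 32 that passed the test between genotypes, as 3.21% of all tested genes did in either direction. This was eIF6 (2R, 23849246 to 23850301, minus strand), whose protein binds the large subunit and keeps it from joining the small one. Its level was 498, 342, 989 and 473 CPM in 9G8 RNAi replicates 1 to 4, against 85.7, 110, 132 and 114.6 CPM in control replicates 1 to 4. All 9G8 RNAi libraries lay above all controls with a wide gap, and 9G8 RNAi 3 was highest. The mean was 575 ± 284 CPM in 9G8 RNAi and 111 ± 19.1 CPM in control (SD, n = 4 each). The log2 fold change was 2.38 (SE 0.40, adjusted p = 0.00691, edgeR's quasi-likelihood test, Benjamini-Hochberg adjustment over 9846 genes). It stayed between 1.98 and 2.53 when each library was left out in turn. The gene lies inside the span of ytr on the same strand, with 0 shared exonic bases, and the same limit applies. The level of ytr was 94.7, 90.9, 121 and 151 CPM in 9G8 RNAi, against 303, 284, 232 and 113 CPM in control, and the groups overlapped. Its log2 fold change was -1.03 (SE 0.37, adjusted p = 0.213, same test) and did not pass. The part of unspliced ytr RNA in the level of eIF6 was not tested.

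**Figure D2:**
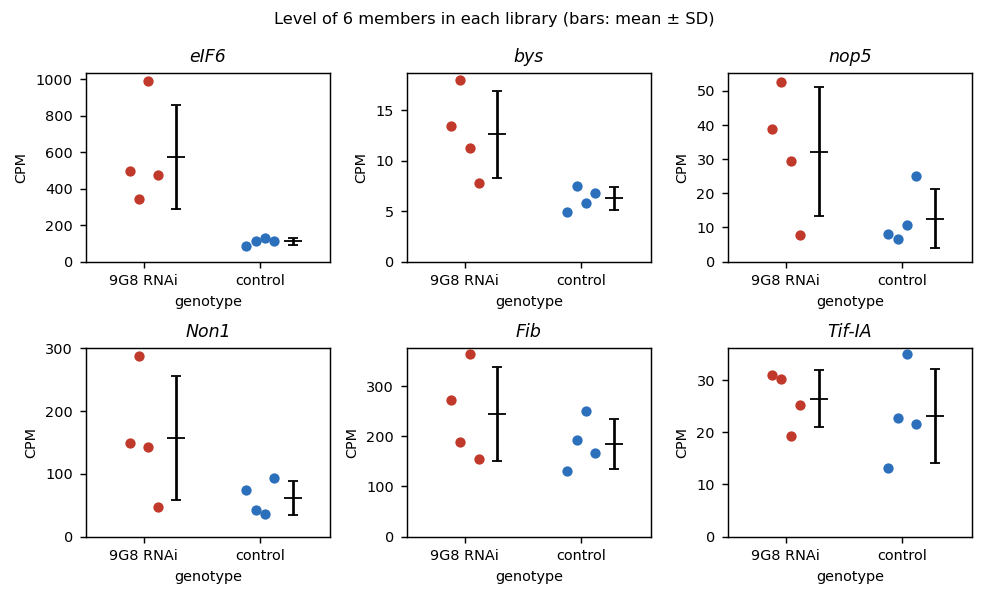
CPM of 6 genes in each library (points, 9G8 RNAi left, control right), with mean and SD as bars (n = 4 each). The groups of eIF6 and bys do not overlap, and those of nop5, Non1, Fib and Tif-IA do.

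Other factors of the large subunit were high and low in nearly the same libraries as RpI135. Non1, a nucleolar GTPase of pre-60S particles, was at 149, 288, 143 and 46.8 CPM in 9G8 RNAi, against 74.0, 42.0, 36.04 and 93.8 CPM in control. Ns1, a GTPase of the nucleostemin family, was at 16.9, 25.1, 13.2 and 4.11 CPM in 9G8 RNAi, against 4.86, 3.15, 3.92 and 10.6 CPM in control. In both, 3 libraries of 9G8 RNAi lay above all controls and 9G8 RNAi 4 lay among them. The gene ppan, peter pan, a large-subunit factor needed for larval growth, was at 6.70, 9.58, 5.16 and 0.728 CPM in 9G8 RNAi, against 0.870, 0.978, 1.54 and 4.47 CPM in control. Its lowest library was 9G8 RNAi 4 and its highest 9G8 RNAi 2. The gene mod, modulo, a nucleolar RNA- and DNA-binding protein under Myc control in flies, was at 91.0, 108, 58.0 and 15.4 CPM in 9G8 RNAi, against 19.5, 13.7, 25.4 and 71.6 CPM in control.

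The remaining 7 of these genes overlapped between genotypes as well. They were pit (pitchoune, a DEAD-box helicase and known Myc target), vito (viriato, a nucleolar growth factor), nclb (no child left behind, needed in germline stem cells), Surf6 (a nucleolar protein of ribosome assembly), Nnp-1, Mys45A and FBgn0022288, which has GRWD1 among its synonyms. Surf6 had 9.14, 9.23, 5.55 and 1.40 CPM in 9G8 RNAi, against 1.34, 1.31, 2.38 and 6.98 CPM in control, again with control 4 among the high values. Nnp-1 ranged from 1.82 to 17.0 CPM in 9G8 RNAi and from 1.92 to 11.2 CPM in control. For vito the range was 0.832 to 4.81 CPM in 9G8 RNAi and 0.712 to 2.09 CPM in control. Their levels were lower in 9G8 RNAi 4 than in the rest of its group without exception. The log2 fold changes of these 7 ran from 0.78 (SE 0.43) for nclb to 1.21 (SE 0.58) for FBgn0022288.

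The files and reference tables give no role for CG10341, CG30349, CG12325, CG13185 and l(2)k09022. CG10341 had 5.05, 9.36, 5.45 and 0.884 CPM in 9G8 RNAi, against 0.988, 1.20, 0.979 and 3.46 CPM in control, and its log2 fold change of 1.65 (SE 0.66) came second to eIF6. In all 5 the value in control 4 stood well above those of the other 3 controls. CG13185 had 20.1 CPM there, against 4.02 to 5.93 CPM in the other controls, and l(2)k09022 had 10.7 CPM, against 1.96 to 2.63 CPM.

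Across all 32 genes the log2 fold change of 9G8 RNAi over control was positive, with a median of 1.08 and a range of 0.19 to 2.38, beside a median of 0.01 over the 9846 tested genes. 1 of 32 genes passed (3.12%), where 3.21% of all tested genes did in either direction and 0.995% did as higher. With 1 gene passing, no excess is read. 11 had an unadjusted p under 0.05, all of them higher. So did 1267 of the 9846 tested genes, 500 of them higher. The 4 values of 9G8 RNAi lay above the 4 of control for 2 genes, eIF6 and bys, and 2.96% of all tested genes were separated in this direction. The direction is one of the values on which the list was proposed, and nothing is read from it. Averaged over the 32 genes, the log2 CPM was 4.43, 4.66, 4.10 and 2.55 in 9G8 RNAi replicates 1 to 4, against 2.498, 2.503, 2.88 and 3.88 in control replicates 1 to 4. The mean was 3.93 ± 0.95 in 9G8 RNAi and 2.94 ± 0.65 in control (SD, n = 4 each), so 9G8 RNAi 4 stood with the low controls and control 4 near the high 9G8 RNAi libraries. 24 of 32 genes were highest in 9G8 RNAi 2, 28 were lower in 9G8 RNAi 4 than in the other 3 of its group, and 27 were higher in control 4 than in 9G8 RNAi 4. Over all tested genes these shares were 24.7%, 39% and 56.8%. Without control 4 the median log2 fold change was 1.69, and without 9G8 RNAi 2 it was 0.75.

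**Figure D3:**
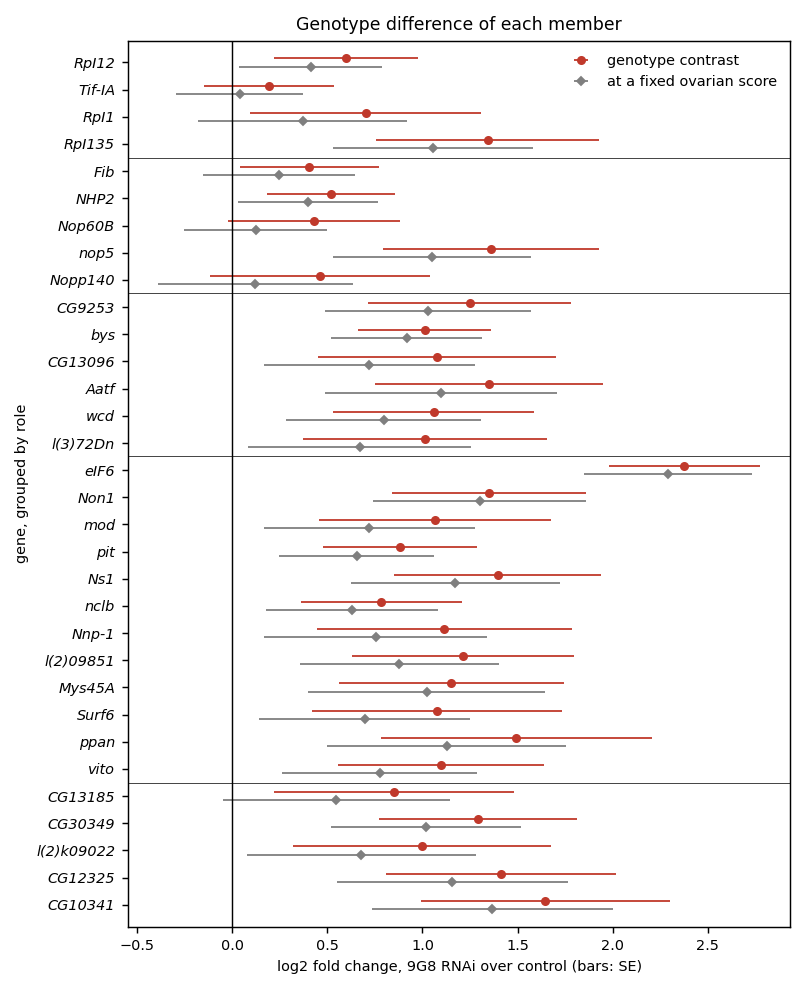
Log2 fold change of 9G8 RNAi over control for each gene, from the genotype comparison (red circles) and at a fixed ovarian score (grey diamonds), with SE as bars. All points lie above 0, eIF6 lies farthest right at 2.38, and the grey points lie left of the red ones.

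The second question was whether the levels followed ovarian RNA. The gene osk was at 107, 64.0, 35.8 and 8.004 CPM in 9G8 RNAi, against 1.58, 6.89, 46.0 and 100.4 CPM in control. The gene nos was at 110, 24.9, 55.8 and 42.2 CPM in 9G8 RNAi, against 0.909, 14.4, 252 and 59.4 CPM in control. The gene vas was at 14.7, 6.06, 5.32 and 1.61 CPM in 9G8 RNAi, against 0.119, 0.978, 7.50 and 13.1 CPM in control. Control 3 and 4 and 9G8 RNAi 1 were rich in RNA of these germline genes, and control 1 nearly lacked it. The eggshell list, which the score below does not use, summed to 22.2 CPM in control 3. In control 4 it summed to 9056 CPM and in 9G8 RNAi 1 to 8531 CPM. The ovarian score, the mean log2 CPM of the 3 genes, was 5.81, 4.42, 4.47 and 3.05 in 9G8 RNAi, against -0.60, 2.24, 5.47 and 5.42 in control, so its mean of 4.43 ± 1.12 in 9G8 RNAi and 3.13 ± 2.91 in control (SD, n = 4 each) differed by less than the spread within control.

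The mean level of the 32 genes followed this score only in part. Over the 8 libraries Pearson's r was 0.661 and Spearman's rho 0.667, and r was 0.419 without control 1 and 2, the libraries farthest from the median score. The points share the library, its depth and its dissection. Against osk alone r was 0.811 (0.735 without control 1 and 2), against vas 0.736 (0.607 without the same libraries) and against nos 0.389 (0.492 without control 1 and 3). Spearman's rho was 0.833 for osk, 0.738 for vas and 0.476 for nos. A pair of libraries departed from the relation. Control 3, with the second highest score, had a mean level of 2.88, close to the 2.498 of control 1, which had the lowest score. 9G8 RNAi 2, with a score below that of control 3, had the highest mean level of all, 4.66.

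**Figure D4:**
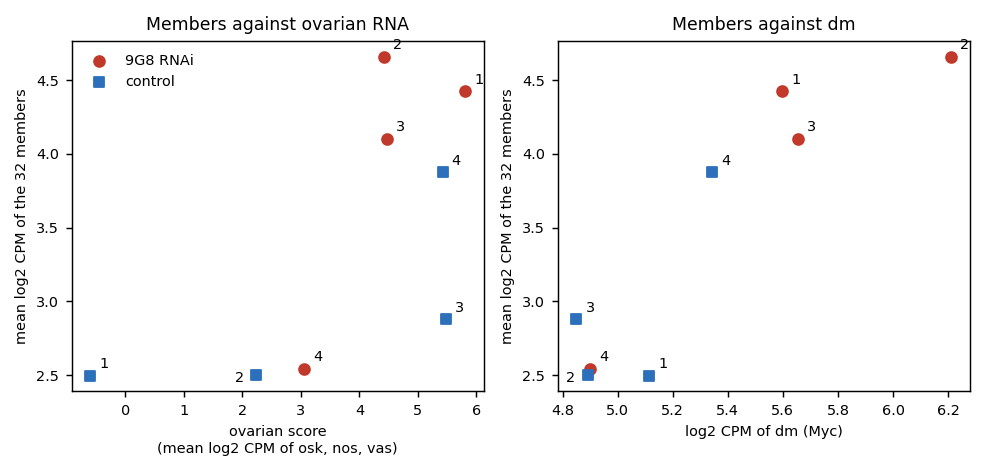
Mean log2 CPM of the 32 genes in each library against the ovarian score (left) and against log2 CPM of dm, the Myc gene (right), with 9G8 RNAi as red circles and control as blue squares, numbered by replicate. At similar scores control 3 lies at 2.88 and control 4 at 3.88, and against dm the points run closer to 1 line than against this score.

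The relation to the score differed between genes. Nop60B followed it most closely, with r = 0.917 over the 8 libraries, and Tif-IA came next with 0.775. Non1 followed it least, with 0.283, then Mys45A with 0.331 and eIF6 with 0.415. The median r of the 32 genes was 0.639, beside 0.008 for all tested genes. The genes closest to the score, Nop60B and Tif-IA, were among those least like the rest, with r = 0.591 and 0.334 against the mean of the other 31. NHP2 (0.296), RpI12 (0.374), Fib (0.489) and eIF6 (0.516) were also apart from the rest, and the other 26 genes had r of 0.825 or more. Over the 496 pairs of genes the median r was 0.888, from 0.001 to 0.998.

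In a fit with genotype and ovarian score together, the slope of a gene is its log2 change per log2 unit of score. The slope was positive for all 32 genes, with a median of 0.24 and a range of 0.03 to 0.38, beside a median of 0.001 over all tested genes. 0 of 32 passed by edgeR's quasi-likelihood test, where 4.13% of all tested genes did. 12 had an unadjusted p under 0.05, all with positive slopes. So did 1439 of the 9846 tested genes, 1049 of them with positive slopes. DESeq2 called 1 of the 32, Nop60B, among 564 genes in all. The largest slopes were 0.38 (SE 0.14) for Surf6 and 0.37 (SE 0.16) for ppan, and the slope with the smallest p was 0.32 (SE 0.10, adjusted p = 0.0995) for Nop60B. The smallest were 0.03 (SE 0.13) for Non1, 0.07 (SE 0.10) for bys and 0.08 (SE 0.11) for eIF6. For Non1 the sign turned with nos alone as the score (-0.09).

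With the score held fixed, the genotype difference of the 32 genes had a median of 0.76 on the log2 scale, beside 1.08 without the score and beside -0.015 for all tested genes. 1 of 32 passed, where 4.5% of all tested genes did in either direction and 1.92% did as higher. It was eIF6, at 2.29 on that scale (SE 0.44, adjusted p = 0.00625), nearly the value without the score. The differences of RpI135 (1.06, SE 0.53), nop5 (1.05, SE 0.52) and Ns1 (1.17, SE 0.55) stayed near 1 with adjusted p of 0.443, 0.437 and 0.382. Those of Tif-IA (0.04, SE 0.33), Nopp140 (0.12, SE 0.51) and Nop60B (0.12, SE 0.38) were near 0. Genotype and score were fitted to 8 libraries, which leaves 5 residual degrees of freedom.

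A further 71 ribosome biogenesis genes outside the list were measured the same way. Among them were other processome subunits, helicases, the RNA exosome, Myc and its partners. This set too was chosen with earlier results of these data known, so its values are no independent check on the listed genes. 69 of 71 had a positive log2 fold change, with a median of 0.95. 14 had an unadjusted p under 0.05, all of them higher, as did 500 of the 9846 tested genes in that direction. 1 passed (1.41%, beside 3.21% of all tested genes in either direction and 0.995% as higher). It was CG33158, for which the reference gene tables list no name or role, with 13.2, 23.8, 20.6 and 4.94 CPM in 9G8 RNAi, against 2.37, 1.81, 2.55 and 4.59 CPM in control. Its groups did not overlap, although 9G8 RNAi 4 and control 4 were close. The log2 fold change was 2.46 (SE 0.51, adjusted p = 0.021), and the call was lost, at adjusted p of 0.0532 to 0.081, without any 1 of 9G8 RNAi 2, 9G8 RNAi 3, control 1, control 2 or control 3. With the replicate number as a block the adjusted p was 0.142. At a fixed score the log2 fold change was 2.29 (SE 0.52, adjusted p = 0.0199), and the call was lost without 9G8 RNAi 2 (0.0688), control 2 (0.0609) or control 3 (0.0802). The kinase gene RIOK1, which acts late in small-subunit maturation, had the highest value below the threshold, at 2.18 (SE 0.59, adjusted p = 0.078). Every 9G8 RNAi library lay above every control for 3 of the 71 genes, as it did for 2.96% of all tested genes. Beside CG33158 these were CG11920 and CG8549 (Sbds, which helps to release eIF6 from the large subunit), both picked for that. With 3 genes, no excess is read, and a link to the level of eIF6 was not tested. CG8549 was at 19.7, 24.3, 21.1 and 25.5 CPM in 9G8 RNAi, against 12.9, 19.4, 16.2 and 9.37 CPM in control, and its log2 fold change was 0.64 (SE 0.32, adjusted p = 0.439).

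The slopes of these 71 genes on the ovarian score had a median of 0.18 and were positive for 67, and 0 passed by edgeR's quasi-likelihood test, where 4.13% of all tested genes did. 11 had an unadjusted p under 0.05, all with positive slopes, beside 1439 of 9846 tested genes, 1049 of them with positive slopes. DESeq2 called 3 of its 564. The smallest p values were those of hoip, a protein of box C/D and spliceosomal particles, with a slope of 0.33 (SE 0.10, adjusted p = 0.0994), and of TAF1B, a Pol I initiation factor, with 0.45 (SE 0.15, adjusted p = 0.133). The gene hoip was at 589, 190, 508 and 259 CPM in 9G8 RNAi, against 119, 192, 484 and 381 CPM in control, an order close to that of Nop60B. Library by library, the mean log2 CPM of the 71 genes was 3.91, 4.02, 3.65 and 2.38 in 9G8 RNAi, against 2.27, 2.34, 2.66 and 3.37 in control. It ran with the mean of the 32 genes at r = 0.998 over the 8 libraries, which the lists share. Both lists were chosen with earlier results of these data known, so no independent agreement is read from this value. The cytosolic ribosomal protein genes had a median log2 fold change of 0.12 over 85 tested genes, of which 1 passed and 5 had an unadjusted p under 0.05. That of 72 mitochondrial ribosomal protein genes was 0.04, with 0 passing and 3 at an unadjusted p under 0.05. Of all tested genes 3.21% passed, and 1267 of 9846 had an unadjusted p under 0.05. The mean log2 CPM of the cytosolic set was 10.9, 10.1, 11.1 and 11.1 in 9G8 RNAi, against 10.7, 10.9, 10.8 and 10.4 in control, lowest in 9G8 RNAi 2, where the 32 genes were highest.

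The Myc gene dm, with its partners Max and Mnt, was picked after its values were seen. It stood at 48.4, 74.1, 50.3 and 29.9 CPM in 9G8 RNAi, against 34.6, 29.7, 28.9 and 40.6 CPM in control, with 9G8 RNAi 2 highest and 9G8 RNAi 4 among the controls. Its log2 fold change was 0.60 (SE 0.33, adjusted p = 0.526), and its slope on the ovarian score was 0.03 (SE 0.09). The mean of the 32 genes ran with log2 CPM of dm at r = 0.912 and rho = 0.762 over 8 libraries, and at r = 0.906 without 9G8 RNAi 2 and 3. Among 9743 genes outside both lists, 109 ran with this mean at r above 0.95, so dm was not the closest gene. The gene dm is long (42.1 CPM but 4.59 CPM per kb over the 8 libraries), and the part of exon length in this relation was not tested. By rank the mean ran closer with osk (rho = 0.833) than with dm, and by Pearson's r (0.811) less closely. Its partner Max had a log2 fold change of -0.20 (SE 0.35) and the Max-binding repressor Mnt one of 0.47 (SE 0.50).

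The genes outside both lists whose log2 CPM ran most closely with the mean of the 32 over the 8 libraries were CG2875 (r = 0.996), rad50 (0.992), CG12050 (0.991), CG6767 (0.989) and CG11180 (0.989). Of 9743 candidates, 109 had r above 0.95. CG2875 was at 7.23, 9.58, 5.58 and 1.25 CPM in 9G8 RNAi, against 1.19, 1.20, 2.13 and 4.38 CPM in control. The DNA repair gene rad50 was at 9.09, 11.6, 5.52 and 1.92 CPM in 9G8 RNAi, against 1.78, 1.67, 2.24 and 6.17 CPM in control. Both show the low 9G8 RNAi 4 and the high control 4.

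The length of transcripts moved with the same libraries. Among tested genes outside the lists, genes with over 3000 exonic bases minus those with up to 1000 deviated by 0.30, 1.55, -0.23 and -0.86 on the log2 scale in 9G8 RNAi replicates 1 to 4, against -0.22, -0.67, -0.50 and 0.61 in control replicates 1 to 4. Long genes were thus relatively high in 9G8 RNAi 2 and control 4 and low in 9G8 RNAi 4 and control 2. The median deviation of the 32 genes was 1.05, 1.502, 0.70 and -1.13 in 9G8 RNAi, against -0.94, -1.13, -0.59 and 0.53 in control. The 13 of them with more than 1000 and up to 2000 exonic bases deviated by 1.51 in 9G8 RNAi 2 and by -1.13 in 9G8 RNAi 4, where the 3012 other genes of that length deviated by -0.21 and 0.18. The 3 with up to 1000 bases, RpI12, NHP2 and vito, deviated by -0.35 and 0.09 in those libraries. With a correction for exon length in each library, chosen after these values were seen, the median log2 fold change of the 32 genes was 1.03, and eIF6 stayed past the threshold at 2.51 (adjusted p = 0.00484).

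**Figure D5:**
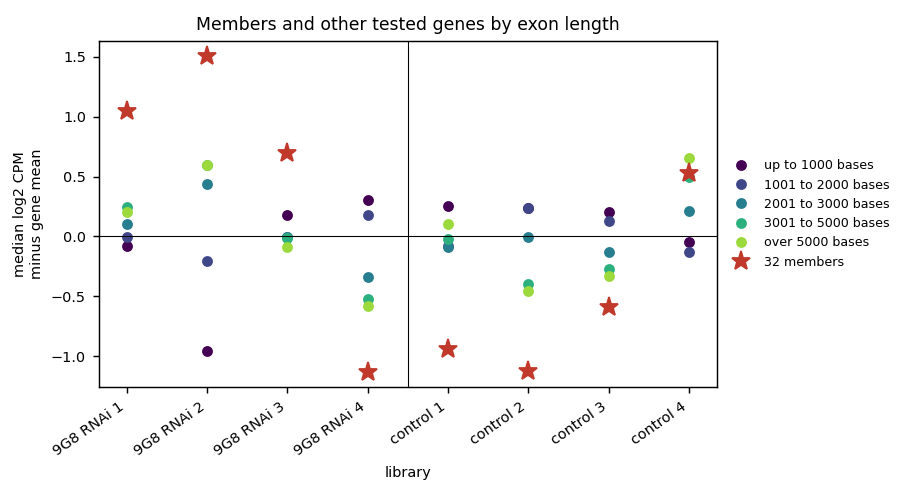
Median log2 CPM minus gene mean in each library (9G8 RNAi left of control) for tested genes outside the lists in 5 classes of exon length (circles) and for the 32 genes (stars). The stars lie beyond the circles in 7 of 8 libraries and among the circles in control 4.

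The 32 genes lay on all major chromosome arms, with 9 on 2L, 12 on 2R, 4 on 3L, 6 on 3R and 1, bys, on X. 15 overlapped the span of another gene and 10 shared exonic bases with one, in no case over 10% of their exonic bases with a single gene. Whether counting used strand is not given in the sources used here, so reads of the 8 that share exonic bases with a gene on the opposite strand cannot be assigned to a strand. Nop60B carries 6 snoRNA genes within its exons, each listed at 0 in all libraries.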

How the data were processed

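Polyadenylated RNA was sequenced from 8 libraries, 4 of 9G8 RNAi and 4 of control, grouped by the genotype in the labels. The authors deposited raw read counts per gene and library, per the file headers in the featureCounts layout. The tools named in the submitters' processing notes are Trimmomatic 0.36, featureCounts (Subread 1.5.2) and STAR 2.5.2b, on build BDGP6. Not given in the sources used here are which annotation release, strand setting and handling of multi-mapping reads were used.

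The tests ran in edgeR 4.0.16 under R 4.3.3. The filterByExpr function by group kept 9846 of 17411 genes. TMM factors scaled the libraries. Genotype was tested by the quasi-likelihood F test with no covariate. A further fit held genotype and the ovarian score, the mean log2 CPM (prior count of 2) of osk, nos and vas. Benjamini-Hochberg adjustment ran over all tested genes, and a gene passed at an adjusted p under 0.05. CPM values were computed here from the deposited counts. CPM per kb uses the gene lengths in the files. Each log2 fold change is of 9G8 RNAi over control, and its SE is derived from the F statistic. Correlations are of log2 CPM over libraries and carry no p. Precision was set by the spread between libraries more than by counting error, with a common biological coefficient of variation of 0.5.

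The members and the other gene lists were chosen with earlier results of these data known. Named were all 32 members, the ovarian markers, the genes with the smallest adjusted p in each contrast among the 71 other biogenesis genes, the 5 genes most like the mean of the members, x16, and genes overlapping members. The genes dm, Max, Mnt, CG11920 and CG8549 fall outside this rule and were picked once their values were known. The fits were tested on simulated data. Alternatives were RLE size factors, tests of unfiltered genes and of genes at a mean CPM of 1 or more, limma-voom (limma 3.58.1), DESeq2 1.42.0, the replicate number as a block, other ovarian scores, and libraries left out singly or as a pair. A length offset was added after the data were seen. Promoter sequence was not used here.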

Additional observations from a re-analysis of the deposited data

Results flagged for a closer look

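In 5 of 72 groups of 4 libraries, for the members and other named genes, 1 library stood apart from the other 3 by Dixon's criterion. For independent, normally distributed values the criterion marks about 1 group in 20. Here CPM were used without logs and the genes share the same libraries, so 5 of 72 cannot be set against that rate. All 5 were values of control replicate 4. The gene l(2)k09022 had 10.7 CPM there, against 1.96 to 2.63 CPM in the other controls. CG10341 had 3.46 CPM, against 0.979 to 1.20 CPM. CG30349 had 10.2 CPM, against 3.64 to 4.48 CPM. CG13185 had 20.1 CPM, against 4.02 to 5.93 CPM. Nopp140 had 33.3 CPM, against 6.99 to 11.1 CPM. Control 4 also held much osk, vas and eggshell RNA (a summed level of 9056 CPM for the eggshell list), and its part in these values was not tested.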

How the results depend on the processing

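The median log2 fold change of the 32 genes stayed positive, between 0.75 and 1.69, under all 17 alternatives, and eIF6 passed under each of them, with an adjusted p of at most 0.0445. The count of all genes changed was 517 with DESeq2, 141 with the replicate block and 162 to 504 when 1 library was left out. The lowest counts were without 9G8 RNAi 2 (162), 9G8 RNAi 3 (179), control 2 (187) and control 1 (198), and the highest without 9G8 RNAi 4 (504). Of the 71 other biogenesis genes, 2 were called without the low-count filter, 2 with DESeq2, 0 with the block, 2 without control 1 and 9G8 RNAi 4 together, and 0 to 4 when 1 library was left out. The ovarian slope called 180 genes with nos alone, 6 with the eggshell score and 247 to 503 when 1 library was left out, lowest without control 1. Of the 32 genes it called 1 with DESeq2 (Nop60B), 2 with osk alone (Nnp-1 and Surf6), 1 with the length offset (RpI12), and 0 to 1 when 1 library was left out. Of the 71 others it called 3 with DESeq2, 1 with the block, 5 with osk alone, 3 with the length offset, and 0 to 1 when 1 library was left out. Over its 21 alternatives the slope called 6 to 564 genes in all, beside 407 (4.13% of 9846) in the main fit. No excess is read from these counts of the 32 or of the 71. At a fixed score, the eggshell score gave 216 genes changed, leaving out 1 library gave 294 to 595, lowest without 9G8 RNAi 2, and the 32 genes gave 1 to 3, with CG10341 and Non1 joining eIF6 without 9G8 RNAi 4. The causes were not tested.

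Slopes of the opposite sign were found with nos alone for Mys45A (-0.054) and Non1 (-0.087), with the eggshell score for bys (-0.001) and Tif-IA (-0.008), and with the length offset for Non1 (-0.007). When 1 library was left out, the slope ran from -0.074 to 0.281 for Non1 and from -0.071 to 0.495 for Mys45A, both negative without control 4, and Non1 also without 9G8 RNAi 4 (-0.029). The genotype difference of Nopp140 at a fixed score was -0.023 with the block and -0.037 with osk alone. With 1 library left out it ran from -0.303 to 0.807 for Nopp140, from -0.065 to 0.937 for RpI1, from -0.187 to 0.249 for Tif-IA, from -0.023 to 0.419 for Fib and from -0.172 to 0.271 for Nop60B. None of these values passed the test. Replicate numbers are shared between the genotypes, but libraries with the same number did not deviate together (correlations of -0.572, -0.25, -0.018 and -0.593 for replicates 1 to 4), so the block fit is an alternative only. The median under the block was 1.22. The ovarian slope and the genotype difference at fixed score rest on 8 libraries, and control 1 alone carries the lowest scores.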
